A study of Mus musculus with 16 samples.

Results

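The 52 genes described here encode the machinery that copies DNA and the enzymes that supply its nucleotides. They were taken by symbol from the 18990 genes of the expression table, all 52 had a row, and all 52 were among the 14028 genes tested. By role they comprise the 6 subunits of the origin recognition complex, 3 licensing genes, the 6 subunits of the replicative helicase, 8 genes of helicase activation, 9 of the DNA polymerases and primase, 6 of the sliding clamp and its loader, 3 of Okazaki fragment maturation, 3 of the single-stranded DNA binding complex RPA, 5 of nucleotide supply and 3 of fork protection.

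DNA replication starts at origins bound by the origin recognition complex (ORC). In G1, ORC, CDC6 and CDT1 load the MCM2-7 helicase, and geminin (*Gmnn*) binds CDT1 and blocks reloading. DBF4-dependent CDC7 kinase, CDC45 and the GINS complex then switch the helicase on, the polymerases copy the strands behind it, and many of these genes are transcribed around the G1/S boundary under E2F factors, so their transcript level in a culture is commonly read beside its proliferation.

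The study asked how the chromatin factor WDR5 and the DNA repair partners BRCA1 and BARD1 act in early reprogramming. Mouse embryonic fibroblasts (MEFs) of passage 2 from wild-type BL6 mice carried a doxycycline-inducible lentiviral cassette of *Oct4*, *Sox2*, *Klf4* and *Myc* (tet-STEMCCA, OSKM) and the rtTA transactivator, and all groups received doxycycline, LIF, ascorbic acid, chiron and an Alk5 inhibitor. They were transfected with 40 nM of pooled siRNAs that were non-targeting (nt control) or directed at *Wdr5* (siWdr5), *Brca1* (siBrca1) or *Bard1* (siBard1), and RNA was taken at day 3 or day 6 without a sort for cell type and depleted of ribosomal RNA. Each of the 8 groups has 2 libraries from independent experiments, so each group mean rests on 2 values, and siRNA pools lower a transcript without removing the gene.

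The libraries held 11169738 to 26832534 reads (median 14618683.5), and 3 reads correspond to 0.114 to 0.260 CPM, the read count scaled to library size. Of the members *Fen1* had the fewest reads in every library, from 14 in siBrca1 replicate 2 at day 3 to 72 in nt control replicate 2 at day 3. At day 3 each siRNA target lay lower in both of its libraries than in both nt control libraries (*Wdr5* at 50.6 and 55.3 against 132 and 130.5 CPM, *Brca1* at 37.5 and 19.4 against 82.4 and 77.98, *Bard1* at 18.01 and 20.8 against 30.5 and 29.1). Each target also passed as lower in at least 1 other knockdown. *Wdr5* had log2 fold changes of −1.31, −0.87 and −0.48 in siWdr5, siBrca1 and siBard1, *Brca1* −0.86, −1.57 and −0.38 (the last with adjusted p = 0.258), and *Bard1* −1.03, −1.38 and −0.62. *Bard1* was lower in siBrca1 than in siBard1 (difference −0.76, adjusted p = 0.0136, −0.42 with adjusted p = 0.0859 without siBrca1 replicate 2). The part of these shared falls in the comparisons between knockdowns was not tested. At day 6 none of the 3 passed the test in its own knockdown (limma, adjusted p = 0.190, 0.988 and 0.853 for *Wdr5*, *Brca1* and *Bard1*). Rows for ribosomal RNA took 0.134% to 0.350% of the reads in nt control libraries and 0.00133% to 0.140% in knockdown libraries; the part of this difference in the results was not tested. Mitochondrial mRNA took 0.805% to 1.37% of the reads at day 3. At day 6 it took 2.06% to 2.13% in nt control, 1.18% to 1.26% in siWdr5, 1.86% to 2.68% in siBrca1 and 1.55% to 1.71% in siBard1. In bulk RNA, fewer cells of a type and less RNA per cell cannot be told apart.

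The 2 siBrca1 libraries of day 3 differed from each other more than those of any other group. Relative to the nt control mean, the median member lay at −0.83 (log2) in replicate 1 and at −1.47 in replicate 2, and 50 of the 52 members were lower in replicate 2. The same difference between replicates had a median of −0.17 to 0.13 in the other 7 groups. *Brca1* itself was lower in replicate 2. Beside a siBrca1 value of day 3 that is given with its SE, the value from the fit without this replicate is given too, and so are the main counts and medians. Without it, 48 members passed as lower and *Fen1* and *Rpa1* no longer did, the median was −0.83, 9 members in place of 34 were below −1, and 4 members (*Mcm5*, *Mcm10*, *Gins1* and *Dut*) had a fold change smaller by over 1.5 times.

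E2F sites are the regulatory sequence these genes are best known for, so the promoter windows of 6 members are shown, 250 bases before to 50 bases after the RefSeq start (GRCm38.p6), each 5′ to 3′ on the strand of the gene. Capitals mark an E2F site, searched as TTTCCCGC, TTTCGCGC, TTTGCCGC or TTTGGCGC on both strands with overlapping matches merged. *Mcm5*, *Mcm6*, *Cdc6* and *Orc1* hold a site and passed as lower in siWdr5 and siBrca1 at day 3, and none of them passed in siBard1. *Orc3* holds a site and did not pass the test in any knockdown, and *Rfc4* holds none and was among the members that fell most.
*Mcm5*, chr8:75109259-75109558, plus strand: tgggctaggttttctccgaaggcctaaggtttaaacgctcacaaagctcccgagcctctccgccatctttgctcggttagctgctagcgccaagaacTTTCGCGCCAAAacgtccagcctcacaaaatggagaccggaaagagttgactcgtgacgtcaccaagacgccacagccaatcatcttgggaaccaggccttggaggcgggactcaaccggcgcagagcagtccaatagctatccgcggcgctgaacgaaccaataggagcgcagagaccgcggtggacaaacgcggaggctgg
*Mcm6*, chr1:128359656-128359955, minus strand: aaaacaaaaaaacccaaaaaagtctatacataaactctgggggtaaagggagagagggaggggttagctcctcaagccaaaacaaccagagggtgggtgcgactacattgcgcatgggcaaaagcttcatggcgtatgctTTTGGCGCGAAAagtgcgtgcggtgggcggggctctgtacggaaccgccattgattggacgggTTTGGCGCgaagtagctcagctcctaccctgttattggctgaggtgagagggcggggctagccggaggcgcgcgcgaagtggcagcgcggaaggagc
*Cdc6*, chr11:98907901-98908200, plus strand: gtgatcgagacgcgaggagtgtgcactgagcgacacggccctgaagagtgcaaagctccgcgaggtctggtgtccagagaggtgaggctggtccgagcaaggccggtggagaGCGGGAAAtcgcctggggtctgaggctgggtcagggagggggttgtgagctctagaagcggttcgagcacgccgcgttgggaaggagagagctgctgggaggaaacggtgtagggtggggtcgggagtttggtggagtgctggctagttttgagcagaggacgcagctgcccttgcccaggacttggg
*Orc1*, chr4:108579204-108579503, plus strand: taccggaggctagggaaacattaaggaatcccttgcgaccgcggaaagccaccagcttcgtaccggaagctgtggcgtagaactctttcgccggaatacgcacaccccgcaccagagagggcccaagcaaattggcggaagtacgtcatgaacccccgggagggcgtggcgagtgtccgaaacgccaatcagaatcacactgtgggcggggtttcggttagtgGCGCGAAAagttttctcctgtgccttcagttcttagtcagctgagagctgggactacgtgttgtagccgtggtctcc
*Orc3*, chr4:34614893-34615192, minus strand: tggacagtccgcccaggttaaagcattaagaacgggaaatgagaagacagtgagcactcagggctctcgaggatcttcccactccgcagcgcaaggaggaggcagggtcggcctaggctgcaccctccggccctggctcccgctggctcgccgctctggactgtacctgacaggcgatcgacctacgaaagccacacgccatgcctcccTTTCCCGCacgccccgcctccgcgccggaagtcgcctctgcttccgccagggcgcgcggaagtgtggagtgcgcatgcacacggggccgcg
*Rfc4*, chr16:23127681-23127980, minus strand: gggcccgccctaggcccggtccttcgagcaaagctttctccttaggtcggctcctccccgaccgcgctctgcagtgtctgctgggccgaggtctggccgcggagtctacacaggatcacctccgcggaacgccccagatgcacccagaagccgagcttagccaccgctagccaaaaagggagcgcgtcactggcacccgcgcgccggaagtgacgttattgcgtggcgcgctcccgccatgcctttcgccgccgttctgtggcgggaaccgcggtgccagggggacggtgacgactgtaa

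Of the 43 members with a promoter window, 16 (37.2%) held an E2F site in at least 1 window, against 2.6% of the 27025 genes of the promoter table. A CCAAT box, searched as CCAAT, was in 55.8% of members and 41.1% of all genes, and the cell cycle homology region, searched as TTTGAA, in 16.3% and 20.2%. A match is a description of these letters and not evidence of binding. *Gmnn*, *Mcm4*, *Gins1*, *Gins2*, *Gins4*, *Pole*, *Prim2*, *Rfc2* and *Tipin* were not matched to a window.

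The levels of the members in nt control cells at day 3 spanned a wide range. Per kilobase of annotated exon, *Rrm2*, the small subunit of ribonucleotide reductase, stood highest at 75.8 ± 2.11 CPM per kb (mean ± SD, n = 2) and *Fen1*, the flap endonuclease of Okazaki fragments, lowest at 1.65 ± 0.140. The 6 helicase subunits, which work as a ring with 1 copy of each, lay between 22.8 ± 0.0517 (*Mcm2*) and 46.2 ± 0.821 (*Mcm7*) CPM per kb, the 6 ORC subunits between 3.54 ± 0.354 (*Orc5*) and 18.5 ± 1.09 (*Orc6*), and the 4 GINS subunits between 3.27 ± 0.170 (*Gins3*) and 25.4 ± 1.19 (*Gins4*). The lengths are of the merged exons of all annotated transcripts, so a gene with long alternative exons appears lower. For *Fen1*, 84.2% of the exon bases lie under genes of the opposite strand, for *Gins2* 67.3% and for *Orc2* 29.8%. Another 4 members (*Orc1*, *Rfc2*, *Rfc4* and *Rfc5*) share between 10.7% and 15.1%. Strand use in counting was not given in the sources used here, so reads of these genes and their antisense partners cannot be told apart.

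At day 3 most replication genes were lower in siWdr5 and siBrca1, and a smaller number in siBard1. Relative to nt control, 45 of 52 members passed the test as lower in siWdr5, 50 in siBrca1 and 7 in siBard1 (limma, adjusted p under 0.05 over all genes tested), and none passed as higher in any of them. Of all 14028 genes tested, 16.8%, 21.8% and 5.87% were lower by the same rule. Over the 52 members the median log2 fold change came to −0.71 for siWdr5, −1.18 for siBrca1 and −0.42 for siBard1, where the median of all genes was −0.04, 0.00 and −0.02. With a log2 fold change below −1 as a further condition, 5, 34 and 0 members remained, against 2.95%, 6.27% and 0.656% of all genes. The 5 in siWdr5 were *Prim1*, *Rfc4*, *Dna2*, *Gmnn* and *Cdc7*. The 3 comparisons share the same 2 nt control libraries.

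Both knockdown libraries lay below both nt control libraries for 51 members in siWdr5, 51 in siBrca1 and 46 in siBard1, which compares with 39.6%, 38.3% and 33.7% of all genes. In siBrca1 replicate 1 alone, all 52 members lay below both nt control libraries. The number of members that passed the test in siWdr5 (45) depended on the libraries. It was lower without any 1 of the siWdr5 or nt control libraries, while the median stayed between −0.68 and −0.74. The number that passed in siBard1 (7) was likewise lower without any 1 of the siBard1 or nt control libraries. It became 17 with limma-voom on the recovered reads and 35 when only the siBard1 and nt control libraries were fitted. The shares of all genes called in such alternative fits, or in fits with a library left out, are not given in this report. Member counts from them therefore have no share to be read against.

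**Figure D1:**
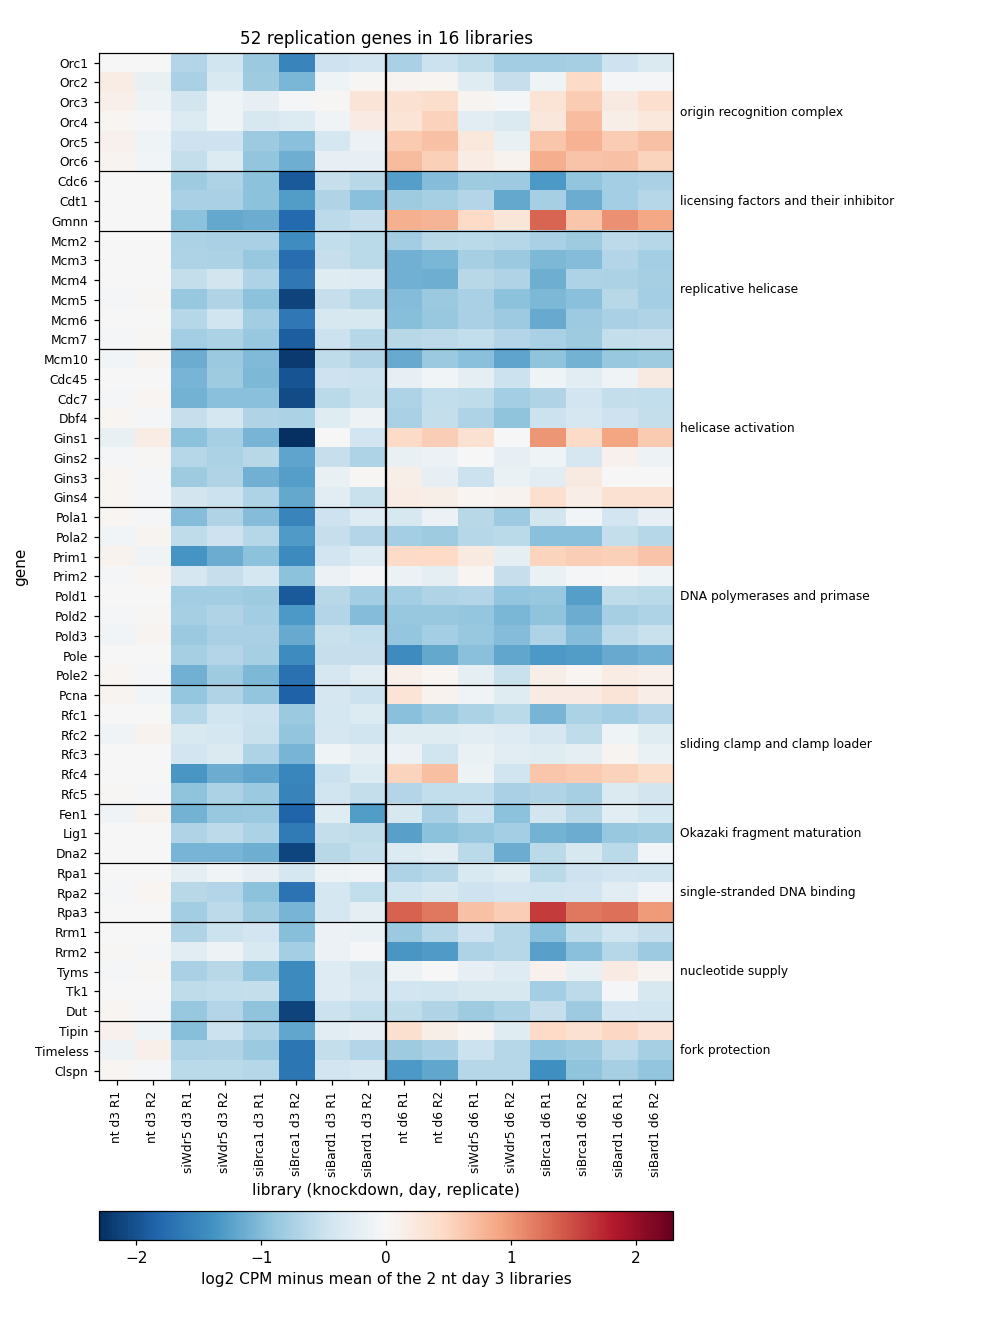
Level of each of the 52 genes (rows, by role) in each of the 16 libraries (columns) as log2 CPM minus the mean of the 2 nt control libraries of day 3; blue is lower and red higher. At day 3 the knockdown libraries are blue in nearly all rows and siBrca1 replicate 2 (median −1.47) is the darkest column, and at day 6 the nt control columns are blue in many rows as well (26 of 52 lower than at day 3).

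At day 3 origin recognition had the median change nearest to 0 of the 10 roles in each knockdown, except that without siBrca1 replicate 2 nucleotide supply was nearest in siBrca1 (−0.56, against −0.82 for ORC). Of the 6 ORC subunits, 4 (*Orc1*, *Orc2*, *Orc5* and *Orc6*) were lower in siWdr5 and the same 4 in siBrca1, and none passed in siBard1. *Orc1*, the largest subunit and an ATPase (chromosome 4, 108579423 to 108614833 in GRCm38), measured 17.6 and 17.5 CPM in nt control, 11.02 and 12.8 in siWdr5, 9.65 and 6.12 in siBrca1 and 12.5 and 12.9 in siBard1. All 6 knockdown values lay below both nt control values. Relative to nt control this was −0.57 ± 0.20 (SE, adjusted p = 0.0371) on the log2 scale for siWdr5, −1.19 ± 0.20 (SE, adjusted p = 2.61e-04, −0.86 without replicate 2) for siBrca1 and −0.47 ± 0.20 (SE, adjusted p = 0.119) for siBard1.

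*Orc3* (chromosome 4, 34570796 to 34614944), another subunit of the complex, passed in no knockdown. It measured 47.8 and 40.6 CPM in nt control, 32.98 and 40.95 in siWdr5, 38.6 and 42.8 in siBrca1 and 44.6 and 54.1 in siBard1, and the values of all 3 knockdowns overlapped those of nt control. On the log2 scale the changes came to −0.26, −0.12 and 0.16. The adjusted p values were 0.172, 0.531 and 0.482. *Orc4*, an ATPase subunit, was the only other member that passed in none of the 3 comparisons, and it had −0.21, −0.34 and 0.06.

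The 3 licensing genes were lower in both siWdr5 and siBrca1, and *Cdt1* also in siBard1. *Gmnn*, the geminin gene (chromosome 13, 24751845 to 24761923), measured 28.04 and 28.1 CPM in nt control, 14.6 and 12.3 in siWdr5, 12.7 and 8.09 in siBrca1 and 18.6 and 19.3 in siBard1. The groups did not overlap with nt control in any knockdown, and the level was 2.09-fold lower in siWdr5 (−1.06 ± 0.19 SE, adjusted p = 8.21e-04) and 2.77-fold lower in siBrca1, or 2.21-fold without replicate 2 (−1.47 ± 0.19 SE, adjusted p = 4.31e-05, −1.15 without replicate 2), with −0.57 ± 0.19 (SE, adjusted p = 0.0561) in siBard1. *Cdt1*, the loader that geminin inhibits, measured 70.8 and 71.4 CPM in nt control, 42.5 and 42.2 in siWdr5, 36.8 and 29.2 in siBrca1 and 44.2 and 36.6 in siBard1. It fell in all 3 (log2 −0.75, −1.12 and −0.82, with an adjusted p of 8.91e-04, 2.69e-05 and 0.00171) with −0.95 in siBrca1 without replicate 2. It passed the 0.05 threshold in every one of the 15 alternative fits of each comparison, while a change beyond −1 was reached in siBrca1 alone, and there not without replicate 2. *Cdc6*, the ATPase that joins ORC to the helicase, fell as well (log2 −0.77 for siWdr5 and −1.45 for siBrca1, −0.95 without replicate 2).

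In siBrca1 all 6 subunits of the helicase were lower, with log2 fold changes from −1.09 (*Mcm2*) to −1.54 (*Mcm5*). Without replicate 2 they ran from −0.70 (*Mcm4*) to −0.94 (*Mcm5*). In siWdr5, 5 of 6 were lower, and in siBard1 only *Mcm2* passed (−0.59 ± 0.16 SE, adjusted p = 0.0265). *Mcm5* (chromosome 8, 75109569 to 75128439) measured 172 and 178 CPM in nt control, 95.9 and 109 in siWdr5, 91.1 and 39.95 in siBrca1 and 120.5 and 111 in siBard1. All 6 knockdown values lay below nt control, siBard1 nearest to it, and siBrca1 replicate 2 far below replicate 1. The log2 change came to −0.78 ± 0.25 (SE, adjusted p = 0.0265) for siWdr5, −1.54 ± 0.25 (SE, adjusted p = 2.37e-04, −0.94 without replicate 2) for siBrca1 and −0.60 ± 0.25 (SE, adjusted p = 0.116) for siBard1. *Mcm4*, the subunit with the smallest mean change over the 3 knockdowns, measured 139 and 138 CPM in nt control, 94.9 and 104 in siWdr5, 84.95 and 44.03 in siBrca1 and 114 and 113 in siBard1. It passed in siBrca1 (−1.18 ± 0.20 SE, adjusted p = 3.98e-04, −0.70 without replicate 2) and not in siWdr5 (−0.48 ± 0.20 SE, adjusted p = 0.0844) or siBard1 (−0.28 ± 0.20 SE, adjusted p = 0.374).

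Among the helicase activators all 8 were lower in siWdr5 and in siBrca1, and *Gins2*, a GINS subunit, in siBard1 too (−0.61 ± 0.18 SE, adjusted p = 0.0347). *Gins2* shares 67.3% of its exon bases with *Gse1* on the opposite strand, so its counts are uncertain. The log2 fold changes of the 8 activators spanned −1.02 to −0.46 in siWdr5 and −1.69 to −0.72 in siBrca1, with a median of −1.35 there (−0.99 without replicate 2). *Mcm10*, which binds the active helicase (chromosome 2, 4989714 to 5012791), measured 72.9 and 79.8 CPM in nt control, 34.7 and 42.01 in siWdr5, 37.8 and 16.6 in siBrca1 and 51.03 and 47.3 in siBard1. It was 3.05-fold lower in siBrca1, or 2.02-fold without replicate 2 (−1.61 ± 0.26 SE, adjusted p = 2.15e-04, −1.01 without replicate 2) and 2-fold lower in siWdr5 (−0.999 ± 0.26 SE, adjusted p = 0.00846), with −0.64 ± 0.26 (SE, adjusted p = 0.107) in siBard1. Within this role *Gins1* had the lowest value in siBrca1 (−1.69 ± 0.31 SE, adjusted p = 5.51e-04, −1.06 without replicate 2), from 11.8 and 14.8 CPM in nt control to 6.33 and 2.67. *Dbf4*, the regulatory subunit of CDC7 kinase, had the smallest mean change of the role, from 60.6 and 57.6 CPM in nt control to 40.8 and 44.6 in siWdr5, 36.4 and 35.5 in siBrca1 and 48.9 and 54.6 in siBard1. Even so, it passed in siWdr5 (−0.47 ± 0.11 SE, adjusted p = 0.00568) and siBrca1 (−0.72 ± 0.11 SE, adjusted p = 1.89e-04, −0.70 without replicate 2). Its catalytic partner *Cdc7* had −1.02 in siWdr5 and −1.51 in siBrca1, or −0.96 in siBrca1 without replicate 2.

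All 9 polymerase and primase genes were lower in siWdr5 and in siBrca1, and 4 of them (*Pola2*, *Pold2*, *Pold3* and *Pole*) in siBard1. Changes spanned −1.25 to −0.46 under siWdr5 and −1.38 to −0.67 under siBrca1, and the 4 members that passed in siBard1 had −0.60, −0.83, −0.54 and −0.53. Without replicate 2 the siBrca1 changes spanned −1.04 to −0.40. *Pold1*, the catalytic subunit of the lagging strand polymerase delta, measured 72.96 and 73.4 CPM in nt control, 42.2 and 42.1 in siWdr5, 41.4 and 19.2 in siBrca1 and 47.3 and 41.96 in siBard1. All 6 knockdown values lay below nt control, and the log2 fold changes were −0.80 ± 0.24 (SE, adjusted p = 0.0186), −1.38 ± 0.24 (SE, adjusted p = 3.76e-04, −0.82 without replicate 2) and −0.72 ± 0.24 (SE, adjusted p = 0.0578) in that order. *Prim2*, the large primase subunit, had the smallest mean change of the role, from 28.8 and 30.99 CPM in nt control to 22.8 and 20.6 in siWdr5, 22.7 and 15.5 in siBrca1 and 27.3 and 29.5 in siBard1, and passed in siWdr5 (−0.46 ± 0.16 SE, adjusted p = 0.0417) and siBrca1 (−0.67 ± 0.16 SE, adjusted p = 0.00402, −0.40 without replicate 2). *Prim1*, the small catalytic primase subunit, was the member with the largest fall in siWdr5 (−1.25 ± 0.17 SE, adjusted p = 1.28e-04). Its log2 fold change in siBrca1 was close to that with both replicates (−1.21) and smaller without replicate 2 (−0.945).

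**Figure D2:**
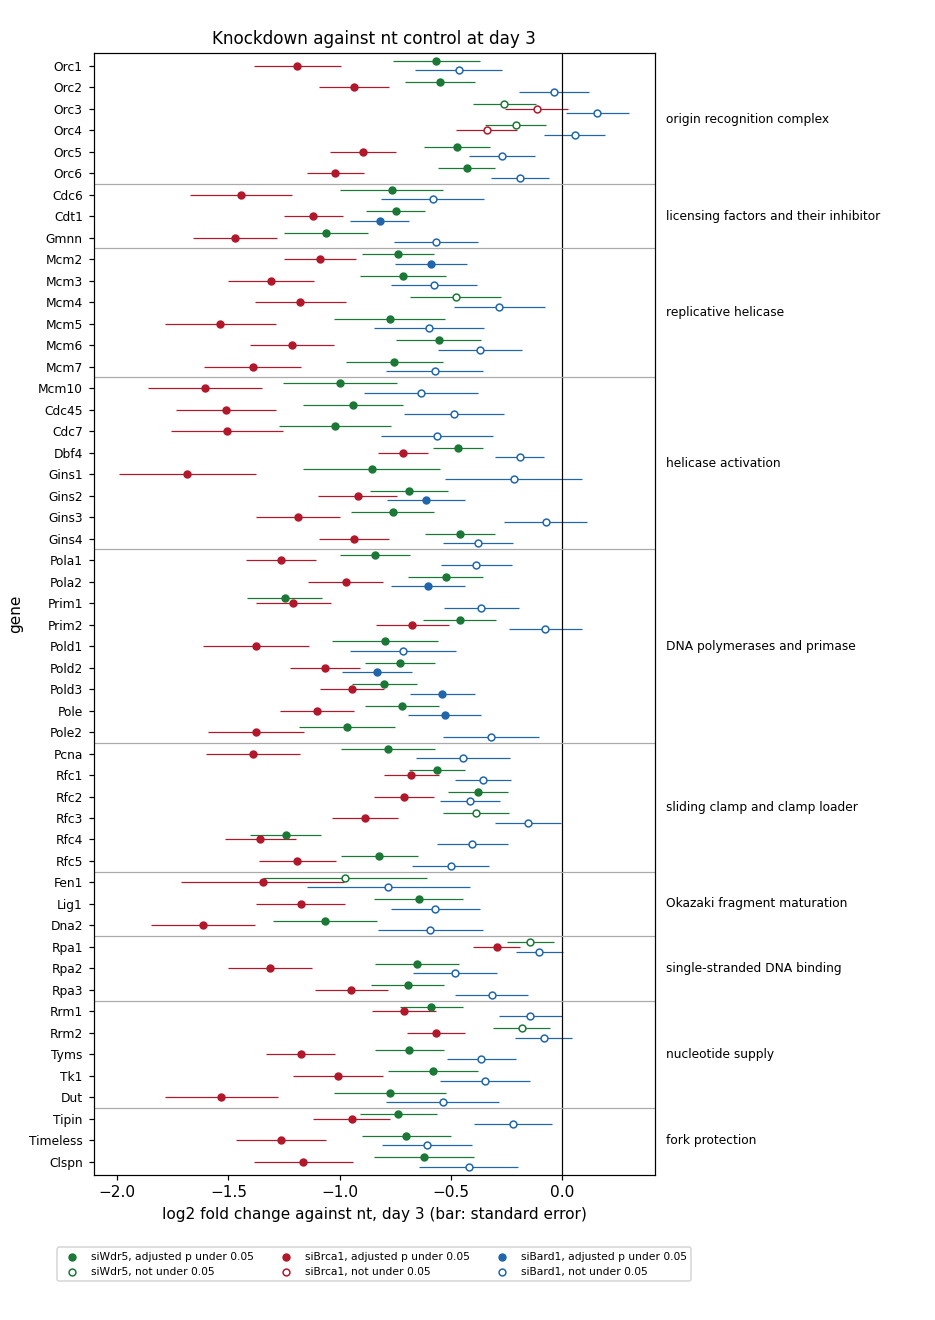
Log2 fold change of each of the 52 genes relative to nt control at day 3 with its standard error, for siWdr5 (green), siBrca1 (red) and siBard1 (blue); filled points passed the test. Nearly all points lie left of 0, siBrca1 is furthest left for 50 genes (39 without siBrca1 replicate 2), and *Orc3* (siBard1 0.16) and *Orc4* (0.06) are the 2 with a point right of 0.

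The clamp *Pcna* and the 5 subunits of its loader, replication factor C, were lower in siBrca1 without exception, and in siWdr5 except for *Rfc3*. Their log2 fold changes in siBrca1 ran from −1.39 to −0.68, and from −1.22 to −0.50 without replicate 2. The table also has a row for a *Pcna* pseudogene (*Pcna-ps2*), so the *Pcna* counts are uncertain. *Rfc4* (chromosome 16, 23113943 to 23127737) measured 22.4 and 22.5 CPM in nt control, 8.85 and 10.2 in siWdr5, 9.65 and 7.94 in siBrca1 and 15.8 and 18.1 in siBard1. The siWdr5 and siBrca1 values overlapped each other and lay below siBard1, which lay below nt control. In log2 terms the difference was −1.24 ± 0.16 (SE, adjusted p = 8.27e-05) for siWdr5, −1.36 ± 0.16 (SE, adjusted p = 2.44e-05, −1.22 without replicate 2) for siBrca1 and −0.41 ± 0.16 (SE, adjusted p = 0.0989) for siBard1. *Rfc3* went from 22.03 and 22.04 CPM in nt control to 16.2 and 17.5 in siWdr5, 13.5 and 10.6 in siBrca1 and 20.5 and 19.1 in siBard1, and passed in siBrca1 (−0.89 ± 0.15 SE, adjusted p = 3.20e-04, −0.71 without replicate 2) but not in siWdr5 (−0.39 ± 0.15 SE, adjusted p = 0.0577). *Rfc4* shares 12.7% of its exon bases with *Eif4a2* on the opposite strand.

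In Okazaki fragment maturation, *Dna2*, a helicase and nuclease, measured 22.6 and 22.9 CPM in nt control, 10.9 and 10.8 in siWdr5, 10.5 and 5.27 in siBrca1 and 14.7 and 15.5 in siBard1. This gave log2 changes of −1.07 ± 0.23 (SE, adjusted p = 0.00356), −1.61 ± 0.23 (SE, adjusted p = 1.15e-04, −1.12 without replicate 2) and −0.59 ± 0.23 (SE, adjusted p = 0.102), and the groups did not overlap with nt control. *Lig1*, which seals the fragments, measured 98.9 and 98.5 CPM in nt control against 60.9 and 65.4 in siWdr5, 59.9 and 31.9 in siBrca1 and 67.1 and 65.9 in siBard1, and passed in siWdr5 (−0.65 ± 0.20 SE, adjusted p = 0.0226) and siBrca1 (−1.18 ± 0.20 SE, adjusted p = 3.39e-04, −0.72 without replicate 2). The low *Fen1* values gave −0.98 ± 0.37 (SE, adjusted p = 0.0531) in siWdr5 and −1.35 ± 0.37 (SE, adjusted p = 0.00822, −0.86 without replicate 2) in siBrca1.

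The 3 RPA subunits, which coat single-stranded DNA as a trimer, were all lower in siBrca1, and *Rpa2* and *Rpa3* in siWdr5. *Rpa2* measured 39.8 and 42.5 CPM in nt control, 26.5 and 25.9 in siWdr5, 21.5 and 12.7 in siBrca1 and 31.2 and 27.8 in siBard1, and fell in siWdr5 (−0.65 ± 0.19 SE, adjusted p = 0.0159) and siBrca1 (−1.31 ± 0.19 SE, adjusted p = 1.02e-04, −0.94 without replicate 2). The largest subunit *Rpa1* (chromosome 11, 75298166 to 75348324) measured 144 and 147 CPM in nt control, 126 and 137 in siWdr5, 128 and 109.5 in siBrca1 and 134 and 137 in siBard1. It passed in siBrca1 at −0.29 ± 0.11 (SE, adjusted p = 0.0344, −0.18 without replicate 2), a call kept in 10 of 15 alternative fits, and gave −0.14 ± 0.11 (SE, adjusted p = 0.316) in siWdr5. In siBard1 no RPA subunit passed.

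All 5 nucleotide supply genes were lower in siBrca1, and all but *Rrm2* in siWdr5. *Dut*, the dUTPase that keeps uracil out of DNA, measured 109 and 103 CPM in nt control, 57.7 and 66.4 in siWdr5, 55.6 and 24.1 in siBrca1 and 74.7 and 71.3 in siBard1. It was 2.89-fold lower in siBrca1, or 1.91-fold without replicate 2 (−1.53 ± 0.25 SE, adjusted p = 2.75e-04, −0.93 without replicate 2) and 1.71-fold lower in siWdr5 (−0.78 ± 0.25 SE, adjusted p = 0.0289). *Rrm2* (chromosome 12, 24708241 to 24714146) measured 214 and 206 CPM in nt control, 176 and 195 in siWdr5, 165 and 122 in siBrca1 and 192 and 205 in siBard1, and passed in siBrca1 (−0.57 ± 0.13 SE, adjusted p = 0.00277, −0.35 without replicate 2) but not in siWdr5 (−0.18 ± 0.13 SE, adjusted p = 0.294) or siBard1 (−0.08 ± 0.13 SE, adjusted p = 0.705). *Rrm1*, the large subunit of ribonucleotide reductase, and *Tyms* and *Tk1*, which make and salvage thymidylate, were lower in siWdr5 (−0.59, −0.69 and −0.58) and siBrca1 (−0.71, −1.18 and −1.01). Without replicate 2 the siBrca1 values of these genes were −0.445, −0.89 and −0.56.

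The fork protection genes *Timeless*, *Tipin* and *Clspn* were lower in siWdr5 and siBrca1. *Timeless* measured 35.5 and 41.3 CPM in nt control, 23.5 and 23.6 in siWdr5, 21.2 and 12.02 in siBrca1 and 26.2 and 24.04 in siBard1, and its log2 fold change was −0.70 ± 0.20 (SE, adjusted p = 0.0152) and −1.26 ± 0.20 (SE, adjusted p = 2.12e-04, −0.85 without replicate 2) in the first 2 knockdowns. Its partner *Tipin* measured 49.7 and 43.7 CPM in nt control, 23.6 and 33.2 in siWdr5, 28.5 and 20.5 in siBrca1 and 38.9 and 41.1 in siBard1, with −0.74 ± 0.17 (SE, adjusted p = 0.00559) and −0.95 ± 0.17 (SE, adjusted p = 6.07e-04, −0.71 without replicate 2). No member of this role passed in siBard1, where *Clspn* had −0.42.

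**Figure D3:**
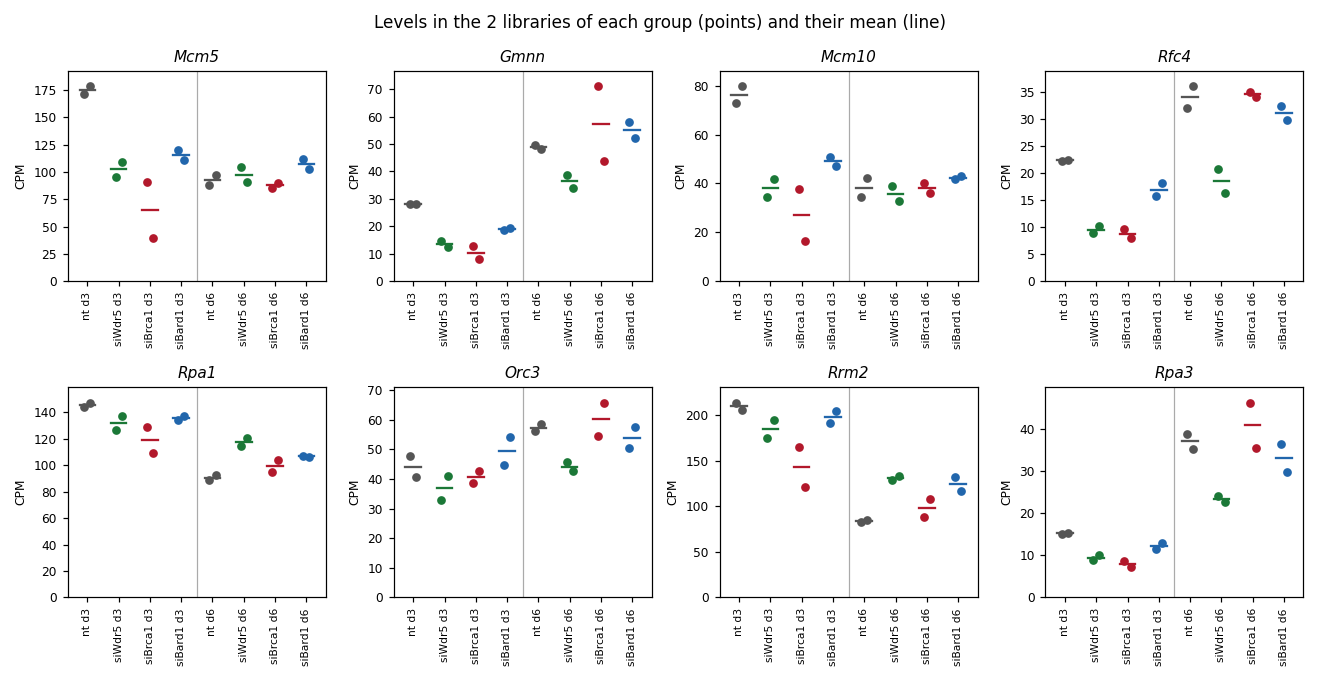
CPM of 8 genes in each library (points, 2 per group) with the group mean (line), by knockdown and day; each vertical axis starts at 0 and has its own scale. *Mcm5*, *Gmnn*, *Mcm10* and *Rfc4* lie below nt control in the day 3 knockdowns, *Rpa1*, *Orc3* and *Rrm2* move less, and *Gmnn*, *Rfc4* and *Rpa3* are higher at day 6 than at day 3.

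Members with and without an E2F site had medians close to each other at day 3. In siWdr5, 14 of 16 members with a site were lower with a median log2 fold change of −0.75, and 23 of 27 members without a site, with a median of −0.695. The medians with and without a site were −1.20 and −1.09 in siBrca1 and −0.50 and −0.41 in siBard1 (15 of 16 and 26 of 27 lower, and 2 of 16 and 3 of 27). Without siBrca1 replicate 2 they were −0.865 and −0.85 in siBrca1. These are descriptions of genes that share libraries, with no test.

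The knockdowns were then compared with each other at day 3. The mean log2 fold change was lowest in siBrca1, intermediate in siWdr5 and nearest to 0 or above it in siBard1 for 46 of the 52 members, and for 36 without siBrca1 replicate 2. Between siBrca1 and siBard1, 40 members passed as lower in siBrca1 (median difference −0.73), against 8.33% of all genes. *Orc6* measured 24.3 and 20.8 CPM in siBrca1 and 40.1 and 39.9 in siBard1 (difference −0.83 ± 0.13 SE, adjusted p = 0.00373, −0.72 without replicate 2), *Gins3* 4.12 and 3.65 against 7.85 and 8.97 (−1.11 ± 0.19 SE, adjusted p = 0.0042, −1.03 without replicate 2), and *Rfc4* differed by −0.95 ± 0.16 (SE, adjusted p = 0.0042, −0.81 without replicate 2). The groups did not overlap for any of these 3 genes. The 40 became 21 without siBrca1 replicate 2 (median −0.37), 15 without siBard1 replicate 1 and 0 without siBard1 replicate 2 (median −0.74).

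Between siBrca1 and siWdr5, 7 members passed as lower in siBrca1 (median −0.42), against 5.47% of all genes. *Orc6* measured 24.3 and 20.8 CPM in siBrca1 and 31.2 and 36.8 in siWdr5 (−0.59 ± 0.13 SE, adjusted p = 0.00755, −0.48 without replicate 2), with no overlap. *Rpa2* (−0.66 ± 0.19 SE, adjusted p = 0.0301, −0.28 without replicate 2) and *Mcm6* (−0.66 ± 0.19 SE, adjusted p = 0.0307, −0.24 without replicate 2) followed, *Mcm6* with 100.1 and 55.9 CPM in siBrca1 and 111 and 126 in siWdr5. This comparison turned on the siBrca1 replicates: 1 member passed without replicate 2 (median −0.13) and 41 without replicate 1 (median −0.72). It was 1 without siWdr5 replicate 1 and 0 without siWdr5 replicate 2.

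Between siWdr5 and siBard1, 3 members passed, all lower in siWdr5, against 3.78% of all genes. They were *Rfc4* (−0.84 ± 0.16 SE, adjusted p = 0.00635), *Prim1* (−0.88 ± 0.17 SE, adjusted p = 0.00672) and *Gins3* (−0.69 ± 0.19 SE, adjusted p = 0.0371). *Prim1* measured 13.1 and 15.4 CPM in siWdr5 and 25.02 and 27.5 in siBard1, and *Gins3* 4.99 and 5.45 against 7.85 and 8.97. The median difference of the 52 members was −0.23. The count was 0 without siWdr5 replicate 1 or siBard1 replicate 2 and 1 without siWdr5 replicate 2.

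A second list of 40 replication and nucleotide genes outside the 52 (among them polymerase accessory subunits, chromatin assembly factors, topoisomerases and pyrimidine enzymes) was counted in the same way. At day 3, 25 were lower and 1 higher in siWdr5 (median −0.54), 35 and 1 in siBrca1 (median −0.86; 33 and 1 with −0.63 without replicate 2) and 11 and 0 in siBard1 (median −0.30). The largest mean falls were those of *Dscc1*, *Dctpp1* and *Shmt1*. *Dscc1*, a subunit of an alternative clamp loader, measured 6.53 and 5.38 CPM in nt control and 3.16 and 0.91 in siBrca1 (−1.81 ± 0.41 SE, adjusted p = 0.0028, −0.91 without replicate 2). *Dctpp1*, which degrades dCTP, had −0.97, −1.52 and −0.77 (adjusted p of 0.00678, 2.02e-04 and 0.0464) in siWdr5, siBrca1 and siBard1. *Shmt1*, the one-carbon enzyme that feeds thymidylate synthesis, had −0.86, −1.50 and −0.68.

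*Pold4*, the smallest subunit of polymerase delta, went the other way. It measured 8.38 and 9.66 CPM in nt control, 13.8 and 13.4 in siWdr5, 17.6 and 21.3 in siBrca1 and 12.7 and 11.8 in siBard1. All 6 knockdown values lay above nt control, and it rose by 0.59 (adjusted p = 0.00992) in siWdr5 and 1.11 (adjusted p = 9.26e-05) in siBrca1 on the log2 scale, with 0.45 ± 0.16 (SE, adjusted p = 0.0701) in siBard1. The 3 polymerase delta subunits among the 52 fell in the same comparisons.

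Other gene lists moved alongside. Of 10 proliferation genes that act outside replication (among them *Cdk1*, *Plk1*, *Aurka* and *Cenpf*), 9 were lower in siWdr5, 10 in siBrca1 and 0 in siBard1 at day 3, with medians of −0.72, −1.42 and −0.35 (−0.87 in siBrca1 without replicate 2, where all 10 still passed). Their summed level was 1059 to 1076 CPM in nt control, 636 to 681 in siWdr5, 309 to 601 in siBrca1 and 848 to 903 in siBard1. Of 9 fibroblast markers, 8 rose in siWdr5, whereas 4 rose and 1 fell in siBrca1, and their sum went from 5800 to 6729 CPM in nt control to between 11450 and 11770 in siWdr5 and between 8572 and 9859 in siBrca1. In siBard1 none rose and 1 (*Dcn*) fell, with a sum of 7412 to 8634 CPM. Of 6 epithelial markers, 3 fell in siWdr5, 2 fell and 1 rose in siBrca1, and none passed in siBard1, where their sum was 36.98 to 45.2 CPM against 44.4 to 66.3 in nt control. The summed level of 5 macrophage and blood markers was 8.21 to 18.8 CPM across the day 3 libraries, with 1 of the 4 tested higher in siWdr5 and 2 in siBrca1. Of 6 endothelial markers 2 (*Tek* and *Kdr*) were tested, and neither passed at day 3. Across all libraries *Tek* had 170 to 886 reads, *Emcn* 0 to 3 and *Cdh5* 0 to 13. The part of these shifts in the fall of the replication genes was not tested.

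At day 6 the differences between knockdown and nt control were small. No member passed in siBrca1 or in siBard1. By the same adjusted threshold 0% of all genes passed in siBrca1 and 0.0784% in siBard1, and limma-voom called 0 members in each. At an unadjusted p under 0.05 (limma) there was 1 member in siBrca1 (*Pold1*). In siBard1 there were 4 (*Mcm3*, *Mcm4*, *Rrm2* and *Clspn*), all higher. The share of all genes at that unadjusted threshold was not counted, so these member counts have no share to be read against. The median log2 fold change was 0.01 in siBrca1 and 0.17 in siBard1. The siBrca1 value lay below 0 under quantile normalization (−0.03) and after centring on the median gene (−0.02), and the siBard1 value was then 0.07 and 0.09.

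*Pold1*, *Tk1* and *Rrm2* had the largest changes in siBrca1 at day 6, and none of them passed. *Pold1* measured 42.4 and 45.6 CPM in nt control and 39.8 and 30.4 in siBrca1 (−0.34 ± 0.15 SE, adjusted p = 0.614). *Tk1* measured 40.2 and 39.7 CPM in nt control and 31.7 and 36.2 in siBrca1 (−0.24 ± 0.14 SE, adjusted p = 0.687). *Rrm2* measured 83.1 and 85.1 in nt control and 88.8 and 108 in siBrca1 (0.22 ± 0.13 SE, adjusted p = 0.682), and none of the 3 pairs overlapped. Of the 52 members, 10 had both siBrca1 libraries below both nt control libraries and 5 above, against 15% and 21.9% of all genes. In siBard1 the largest were *Rrm2* at 133 and 117 CPM (0.57 ± 0.13 SE, adjusted p = 0.121), *Clspn* at 26.8 and 24.02 (0.42 ± 0.17 SE, adjusted p = 0.322) and *Mcm4* at 83.4 and 81.5 (0.37 ± 0.14 SE, adjusted p = 0.286). For each of them both siBard1 libraries lay above both nt control libraries, as for 31 of the 52 members and 34.2% of all genes. Fitting all 16 libraries together let 1 member, *Rrm2*, pass in siBard1.

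In siWdr5 at day 6, 7 members were lower and 4 higher than in nt control, against 5.7% and 16.1% of all genes, and the median of the 52 was −0.08. Centring on the median gene gave 9 lower and 1 higher and quantile normalization 11 and 1. The lower members were *Orc4*, *Orc5*, *Orc6*, *Pola1*, *Prim1*, *Rfc4* and *Rpa3*. *Rfc4* measured 32.1 and 36.1 CPM in nt control and 20.8 and 16.4 in siWdr5 (−0.89 ± 0.15 SE, adjusted p = 0.00549). *Orc4* measured 34.5 and 40.1 in nt control and 23.2 and 22.1 in siWdr5 (−0.72 ± 0.16 SE, adjusted p = 0.0144). *Rpa3*, the smallest RPA subunit, measured 38.8 and 35.3 in nt control and 24.2 and 22.7 in siWdr5 (−0.66 ± 0.16 SE, adjusted p = 0.018). The groups did not overlap for any of these. The other 4 had −0.60 (*Orc5*), −0.51 (*Orc6*), −0.49 (*Pola1*) and −0.45 (*Prim1*). Both siWdr5 libraries lay below both nt control libraries for 20 of the 52 members and 27.4% of all genes.

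The 4 higher members in siWdr5 were *Rrm2*, *Clspn*, *Mcm4* and *Rpa1*. *Rrm2* measured 83.1 and 85.1 CPM in nt control and 129 and 134 in siWdr5 (0.65 ± 0.13 SE, adjusted p = 0.00888). *Clspn*, the claspin adaptor of the replication checkpoint, went from 18.2 and 19.7 in nt control to 28.7 and 28.6 (0.60 ± 0.17 SE, adjusted p = 0.0326). Both siWdr5 libraries lay above both nt control libraries for each of the 4 members, as they did for 12 of the 52 members and 41.3% of all genes. *Mcm4* measured 64.4 and 63.2 in nt control and 89.2 and 85.98 in siWdr5 (0.46 ± 0.14 SE, adjusted p = 0.0383), and *Rpa1* 88.6 and 92.7 against 114 and 120.5 (0.37 ± 0.11 SE, adjusted p = 0.0355). No member passed without siWdr5 replicate 2 or nt control replicate 2, 1 passed without nt control replicate 1, and 9 without siWdr5 replicate 1. In these libraries 4 of 9 fibroblast markers were higher (7315 to 10390 CPM summed, against 3921 to 3947 in nt control) and 4 of 6 epithelial markers lower (358 to 480 against 557 to 750 CPM), and mitochondrial mRNA took 1.18% to 1.26% of the reads against 2.06% to 2.13%; their part was not tested.

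Whether the change from nt control differed between the 2 days was tested directly. In siBrca1 it was higher at day 6 for 47 of the 52 members, with a median difference of 1.12, against 10.3% of all genes. Without replicate 2 of day 3 the median difference was 0.84. The 3 smallest adjusted p values were those of *Rfc4* (1.38 ± 0.21 SE, adjusted p = 0.00226, 1.24 without replicate 2), *Orc6* (1.12 ± 0.18 SE, adjusted p = 0.00235, 1.01 without replicate 2) and *Gmnn* (1.66 ± 0.29 SE, adjusted p = 0.00295, 1.34 without replicate 2). *Rfc4* rose from 9.65 and 7.94 CPM at day 3 to 35 and 34.2 at day 6 in siBrca1, and from 22.4 and 22.5 to 32.1 and 36.1 in nt control. *Orc6*, the smallest ORC subunit, went from 24.3 and 20.8 to 81.4 and 71.5 CPM and *Gmnn* from 12.7 and 8.09 to 70.99 and 43.9. All 6 helicase subunits (median 1.30) and all 8 activators (median 1.33) passed, and without replicate 2 of day 3 it was 6 (median 0.80) and 7 (median 0.996). The members that did not pass were *Orc3*, *Orc4*, *Rfc2*, *Fen1* and *Tk1*.

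In siWdr5 the same test gave 6 members, all higher at day 6 (3.4% of all genes), with a median of 0.64 where the median of all genes was 0.12. They were *Mcm2*, *Mcm3*, *Pole*, *Rfc1*, *Rrm2* and *Clspn*. *Rrm2* differed by 0.83 ± 0.19 (SE, adjusted p = 0.035), *Rfc1*, the largest clamp loader subunit, by 0.80 ± 0.19 (SE, adjusted p = 0.0367) and *Pole*, the leading strand polymerase, by 0.96 ± 0.24 (SE, adjusted p = 0.0391). *Rfc1* measured 122 and 121 CPM in nt control and 76.8 and 88.1 in siWdr5 at day 3, whereas at day 6 the values were 62.2 and 66.96 in nt control and 73.3 and 78.7 in siWdr5. *Pole* measured 109.7 and 111 in nt control and 65.01 and 69.2 in siWdr5 at day 3, and 40.4 and 49.1 in nt control and 56.9 and 48.5 in siWdr5 at day 6. For *Rfc1* siWdr5 lay below nt control at day 3 and above it at day 6, and for *Pole* it lay below at day 3 and overlapped at day 6. Centring on the median gene, quantile normalization and leaving out any 1 of the 8 libraries concerned each left 0 members.

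In siBard1 no member passed the adjusted threshold, by which 0.0214% of all genes were higher, limma-voom called 0 and the median was 0.62. At an unadjusted p under 0.05 (limma) there were 31 members, all higher at day 6. The share of all genes at that unadjusted threshold was not counted. The smallest adjusted p values were those of *Pold2* (0.96 ± 0.22 SE, adjusted p = 0.0614), *Pold3* (0.82 ± 0.21 SE, adjusted p = 0.0707) and *Cdt1* (0.90 ± 0.23 SE, adjusted p = 0.0725). *Pold2*, an accessory subunit of polymerase delta, measured 70.5 and 73.1 CPM in nt control and 45.3 and 35.9 in siBard1 at day 3, and 39.2 and 39.5 in nt control and 42.2 and 43.8 in siBard1 at day 6. *Pold3* went from 35.8 and 38.7 to 20.1 and 21.6 in nt control and from 26 and 25.2 to 24.4 and 26.2 in siBard1. For both genes the siBard1 libraries lay below nt control at day 3 and above it at day 6, and *Cdt1* at day 6 stood at 40.3 and 41.7 in nt control and 41.3 and 45.3 in siBard1. Fitting only the 4 groups concerned gave 29 members, and the share of all genes in that fit is not given. Of the 10 proliferation genes, the difference between days passed for 1 in siWdr5, 10 in siBrca1 and 0 in siBard1, and of the 40 other replication genes for 5, 26 and 0 as higher, with 1 lower in siBrca1.

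**Figure D4:**
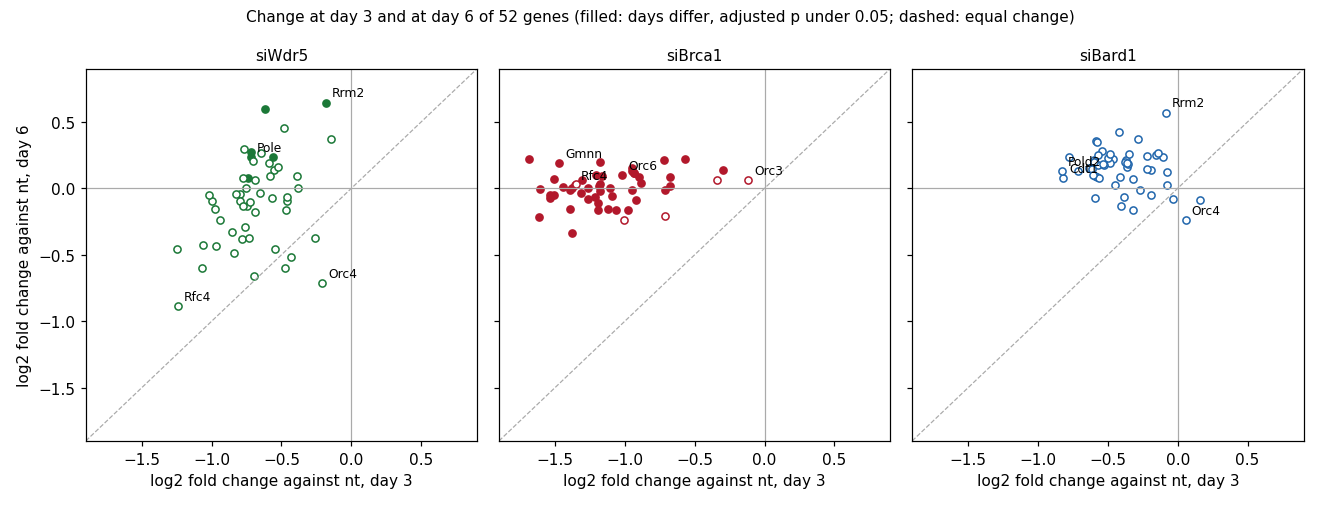
Log2 fold change relative to nt control at day 3 (horizontal) and day 6 (vertical) of the 52 genes in each knockdown; filled points are genes whose change differed between the days (6 in siWdr5, 47 in siBrca1, 0 in siBard1), and the dashed line marks equal changes. In siBrca1 the cloud lies along 0 on the vertical axis, with medians of −1.18 at day 3 and 0.01 at day 6.

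In nt control cells themselves, the members did not move together between day 3 and day 6. Of the 52, 26 were lower at day 6 and 8 higher, against 27.1% and 19% of all genes, and the median log2 change was −0.59 (all genes −0.07). All 6 helicase subunits were lower, with a median of −0.93, whereas 4 of 6 ORC subunits were higher and 1 lower. Leaving out any nt control library gave 20 to 23 lower and 5 to 6 higher members.

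The largest falls were those of *Rrm2*, *Pole* and *Clspn*. *Rrm2* went from 214 and 206 CPM at day 3 to 83.1 and 85.1 at day 6 (−1.32 ± 0.14 SE, adjusted p = 4.15e-06), *Pole* from 109.7 and 111 to 40.4 and 49.1 (−1.31 ± 0.17 SE, adjusted p = 2.23e-05) and *Clspn* from 46.7 and 43.8 to 18.2 and 19.7 (−1.26 ± 0.23 SE, adjusted p = 3.99e-04). *Cdc6* (−1.13), *Mcm4* (−1.12), *Lig1* (−1.10) and *Mcm3* (−1.08) also fell.

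The 8 members that rose were *Rpa3*, *Gmnn*, *Orc6*, *Orc5*, *Rfc4*, *Prim1*, *Orc4* and *Orc3*. As a share of the 52 this was not above the 19% of all genes that passed as higher. *Rpa3* (chromosome 6, 8255936 to 8259173) went from 15.2 and 15.3 to 38.8 and 35.3 CPM (1.28 ± 0.16 SE, adjusted p = 1.74e-05), *Gmnn* from 28.04 and 28.1 to 49.6 and 48.1 (0.80 ± 0.21 SE, adjusted p = 0.00492) and *Orc6* from 47.6 and 43.8 to 75.6 and 66.7 (0.64 ± 0.12 SE, adjusted p = 7.01e-04). The days did not overlap for any of these 3. Both day 6 libraries lay above both day 3 libraries for 13 of the 52 members and 34% of all genes. The other 5 of the 8 that passed rose less. *Orc5* went from 23.4 and 20.3 to 32.9 and 34.8 CPM (0.64 ± 0.15 SE, adjusted p = 0.0024) and *Orc4* from 28.4 and 26.9 to 34.5 and 40.1 (0.42 ± 0.15 SE, adjusted p = 0.0314). *Orc3* reached 56.1 and 58.4 CPM (0.38 ± 0.14 SE, adjusted p = 0.0395), *Rfc4* 32.1 and 36.1 (0.60 ± 0.15 SE, adjusted p = 0.00372) and *Prim1* 45.7 and 46.2 from 35.5 and 32.1 (0.45 ± 0.17 SE, adjusted p = 0.0391). Subunits of 1 complex thus went opposite ways: *Rpa1* fell (−0.68 ± 0.10 SE, adjusted p = 7.77e-05) as *Rpa3* rose, and *Orc1* fell (−0.62 ± 0.19 SE, adjusted p = 0.0137) as *Orc6* rose.

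Over the same days the 40 other replication genes had 23 lower and 3 higher (median −0.61), and the 10 proliferation genes 6 lower and 0 higher (median −0.75). All 6 epithelial markers rose, from 44.4 to 66.3 CPM summed at day 3 to between 557 and 750 at day 6, and the fibroblast markers had 4 higher and 2 lower, with a lower sum at day 6 (3921 to 3947 CPM). The endothelial marker *Tek* fell (−1.49, limma, adjusted p = 6.79e-05), and *Kdr* did not pass. The share of mitochondrial mRNA went from 0.817% to 0.954% of the reads at day 3 to 2.06% to 2.13% at day 6. Their part in the changes of the members was not tested.

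**Figure D5:**
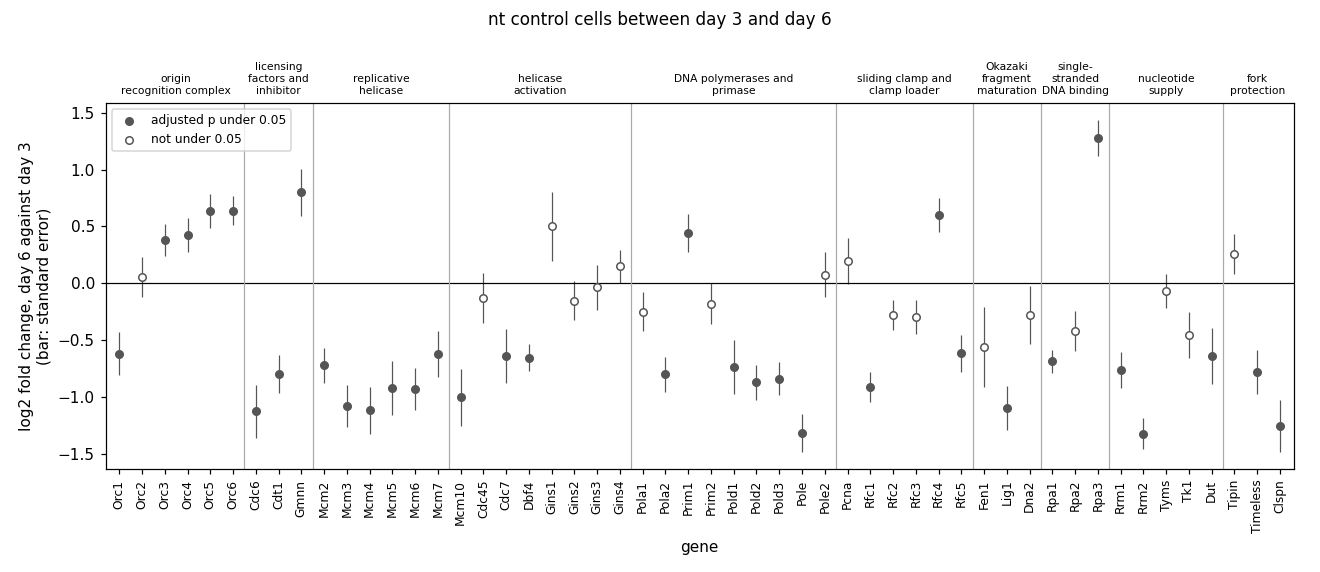
Log2 fold change from day 3 to day 6 in nt control cells with its standard error for the 52 genes by role; filled points passed the test (26 lower, 8 higher). *Rpa3* (1.28) is the highest point and *Rrm2* (−1.32) the lowest, and the points of a single complex lie on both sides of 0 for ORC, the clamp loader and RPA.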

How the data were processed

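RNA-seq libraries were compared from the deposited table of log2 CPM values. Per the labels and the study's methods, the authors used STAR 2.5.2b to align reads to mm10 (the GRCm38 mouse genome), counted reads per gene and computed log2 CPM with edgeR 3.20.9. Strand use in counting was not given in the sources used here. The values gave whole reads in 100% of checked entries (within 0.01 read, up to 10000 reads), so library totals and reads could be recovered. The 14028 of 18990 genes whose mean log2 CPM over the libraries was not below 0 were tested with limma 3.58.1 (moderated statistics with a mean-variance trend, R 4.3.3), fitting the 8 libraries of a day for comparisons within it and all 16 for differences between days. Benjamini-Hochberg adjustment covered every tested gene, separately in each of the 13 comparisons, and a gene passed at an adjusted p under 0.05. Fold changes are differences of mean log2 CPM, ± is the standard error (SE), and a replicate is 1 library. With 2 libraries per group, precision is limited by their number more than by reads. The pipeline was tested on simulated counts with known changes, drawn independently for each gene. Shifts shared by many genes of a library, as in siBrca1 replicate 2 of day 3, were not simulated. Gene coordinates and exon bases are those of GENCODE vM21 (GRCm38), promoter windows those of RefSeq (GRCm38.p6), and sums and motif counts were made in Python 3.11.15.

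The members, their roles and the other lists were chosen with earlier results of these data known. Named with full values were, per role, the members with the largest and smallest mean absolute change over the 3 comparisons of day 3. The 3 largest changes per knockdown at day 6, the 3 smallest adjusted p values per difference between days and per comparison of knockdowns, the 3 largest rises and falls in nt control and members passing against the majority were added, and so were the 3 largest rises and falls among the other replication genes that passed. Further members were named after their values were seen. Alternatives were other filters, pseudocounts, normalizations and sets of libraries, a fit without the trend, limma-voom on the recovered reads, a replicate block and the removal of each library.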

Additional observations from a re-analysis of the deposited data

Results flagged for a closer look

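Results were listed for a closer look when the change from nt control differed between day 3 and day 6 by the test of that difference itself. In siBrca1 this held for 47 members, against 10.3% of all genes. The named ones were *Gmnn* with a difference of 1.66, *Rfc4* with 1.38 and *Orc6* with 1.12 on the log2 scale. Their changes from nt control at day 6 were 0.19, 0.02 and 0.10, and did not pass. In siWdr5 the difference between days passed for 6 members, against 3.4% of all genes, with 0.96 for *Pole*, 0.83 for *Rrm2* and 0.80 for *Rfc1*. Centring on the median gene, quantile normalization and a fit without the trend each left 0 members in siWdr5. The siRNA targets themselves were closer to nt control at day 6 than at day 3, and the part of this in the differences was not tested.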

How the results depend on the processing

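Of 1546 alternative values for 102 named gene results, 1325 kept their direction and side of the threshold, 182 fell short of it, 38 newly passed it and 1 reversed (*Orc3* in siBrca1 at day 3, not called, 0.003 without nt replicate 1 and −0.233 without nt replicate 2). Counts of passing members moved by over 1.5 times as follows. The shares of all genes called under these settings are not given beside them. For siWdr5 at day 3 (45) the count was 24 with no filter, 22 without the trend, 5 above a log2 change of 1 and 9 to 24 with 1 library left out. For siBard1 at day 3 (7) it was 2, 1, 0 and 1 to 2 in that order, and 35 with only the groups compared, 17 with limma-voom and 19 with the replicate block. For siWdr5 at day 6 (11) it was 3 without the trend, 0 above 1 and 0 to 9 with 1 library left out. For siBard1 at day 6 (0) it was 1 with all 16 libraries. For the difference between days, siWdr5 (6) gave 31 with only the groups compared, 1 above 1, and 0 without the trend, centred, quantile normalized or with 1 library left out. For siBard1 (0) it gave 29 with only the groups compared and 1 with the replicate block. The nt course (34) gave 8 above 1. For siBrca1 against siWdr5 (7) the count was 1 with no filter, with only the groups compared or without the trend, 11 with all 16 libraries or limma-voom, 21 with the replicate block, 0 above 1 and 0 to 41 with 1 library left out. For siBrca1 against siBard1 (40) it was 14 with no filter, 16 with only the groups compared, 1 without the trend, 5 above 1 and 0 to 50 with 1 library left out. For siWdr5 against siBard1 (3) it was 17 with only the groups compared, 5 with limma-voom or the replicate block, 0 above 1 and 0 to 2 with 1 library left out. The replicate numbers were not taken to pair the samples, since same-numbered deviations correlated at −0.093 to 0.072 at day 3, under 0.1 in every pair of groups, and at −0.07 to 0.26 at day 6, where some pairs were above it. The block left siWdr5 at day 3 at 47, siBrca1 at 50, its difference between days at 48 and the nt course at 34. In all other settings the counts stayed within 1.5 times. The causes of these shifts were not tested. A fit that leaves out a library assumes that the lone sample varies like the other groups. With 2 libraries per group, calls depend on single libraries, and members with opposite-strand neighbours have uncertain counts.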
